A study of Mus musculus with 52 samples.

Results

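The genes described here encode the extracellular matrix of the liver, the enzymes that fold, crosslink and cut that matrix, and markers of the hepatic stellate cell. The list held 47 genes, of which 45 had a probe set annotated to that gene alone, and Fbn1 and Loxl2 had none. Where several such probe sets existed, as for 35 members, the one with the highest mean over all arrays stood for the gene. The 45 members, among 18193 genes measured in this way, comprised 5 fibrillar collagens, 7 basement membrane genes, 4 beaded filament and fibril-associated collagens, 9 matrix glycoproteins, proteoglycans and elastic fibre genes, 6 remodelling proteases and inhibitors, 5 folding and crosslinking genes, and 9 stellate and contractile cell markers.

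The livers came from C57Bl6/N mice labelled male and aged 8 to 12 weeks. This age range is given alike for every group, 3 months included, so it cannot be the age at sampling of all of them. At the late times age and the operation therefore cannot be told apart. They were measured on 52 Affymetrix Mouse Genome 430 2.0 arrays. The operated mice had undergone partial hepatectomy, in which most of the liver is removed and the remnant grows back, and were sampled at 1 hour (3 arrays), 6 hours (4), 12 hours (4), 24 hours (11), 48 hours (4), 3 days (4), 4 days (4), 1 week (4), 2 weeks (2), 4 weeks (4) and 3 months (3). The 5 control arrays were labelled untreated, so surgery and loss of tissue cannot be told apart. The labels number the replicates without saying that each is 1 animal, so the p-values rest on the spread among numbered arrays, part of which may be technical.

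Stellate cells lie between the sinusoidal endothelium and the hepatocytes, store vitamin A in quiescence, and are the main source of fibrillar collagen in injured liver. When activated they turn into contractile, matrix-secreting myofibroblasts that carry smooth muscle actin. Basement membrane collagens and laminins are also made by endothelial and biliary cells, and in the regrowing liver new matrix is laid down around new vessels and hepatocyte clusters. In whole liver RNA, fewer cells of a type and less RNA per cell cannot be told apart.

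Some arrays stood apart. In 1-week replicate 4 Timp1 was at 8.78, against 3.88 to 4.68 in the other 1-week arrays, and in 4-week replicate 1 Col3a1 was at 5.38, against 8.16 to 8.54 in the other 4-week arrays. The 24-hour replicates 9, 10 and 11 carried signal for Xist, which is normally transcribed in female cells, although all mice were labelled male. Hybridization control probe sets had group means of 9.73 to 10.38 in operated arrays, below the 10.85 ± 0.29 (SD, n = 5) of untreated arrays. The Gapdh 3′ minus 5′ difference, a measure of RNA integrity, had group means of 0.65 to 1.10 in operated arrays, against 1.61 ± 0.57 (SD, n = 5) in untreated arrays. Values of the members are log2 signals, a change is a difference of group means on that scale given with its standard error, and a member was called at an adjusted p under 0.05 over all 18193 genes. Of the 45 members, 37 lay above the median of all probe sets in every group and 1, Plod2, in none.

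Over the whole course, 37 of the 45 members (82.2%) were called by a moderated F test over the 11 times, against 64.6% of all genes. Col4a1, Col4a2 and Nid1 of the basement membrane and a few other genes were called up at 6 hours, when no listed fibrillar collagen was. All 5 listed fibrillar collagens, with many other members, were higher at 3 and 4 days. The comparisons with untreated liver share its 5 arrays, so their errors are not independent.

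At 1 hour no member was called in either direction, against 3.67% of all genes called up and 1.37% called down, and 3 members had an unadjusted p under 0.05. Counts at an unadjusted p, here and for the steps between times, were made for the members only. They have no share of all genes to be set against. At 6 hours 8 members were called up and 3 down, against 11.4% of all genes up and 10.5% down. At 12 hours 7 were called up and 4 down, against 17.9% and 12.0% of all genes, so the members' share called up, 15.6%, was no larger than that of all genes. At 24 hours 11 were up and 2 down, against 18.9% and 12.8%. At 48 hours 8 were up and 3 down, against 17.4% and 13.4%. The members' shares called up at these 2 times, 24.4% and 17.8%, also lay near those of all genes. At 3 days 21 members were up and 4 down, against 21.7% and 17.7% of all genes. At 4 days 25 were up and 2 down, against 18.8% and 14.1%. At 1 week 17 were up and 2 down, against 21.8% and 14.9%. From 3 days to 1 week the members' shares called up, 46.7%, 55.6% and 37.8%, exceeded those of all genes. The median change of the 45 members was 0.50 at 3 days, 0.57 at 4 days and 0.51 at 1 week, while that of all genes was -0.02, -0.00 and 0.02. At 2 weeks 3 members were up and 0 down, against 2.80% and 0.605%, with 11 members at an unadjusted p under 0.05. At 4 weeks 4 were up and 1 down, against 9.33% and 5.38%. At 3 months 5 were up and 5 down, against 16.7% and 13.4%. Of all genes called at 4 days, 57.2% were up as deposited, 74.1% after centring each array on its median and 48.8% after quantile normalization, while of the members 25, 26 and 19 were up and 2, 2 and 3 down under these scalings.

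**Figure D1:**
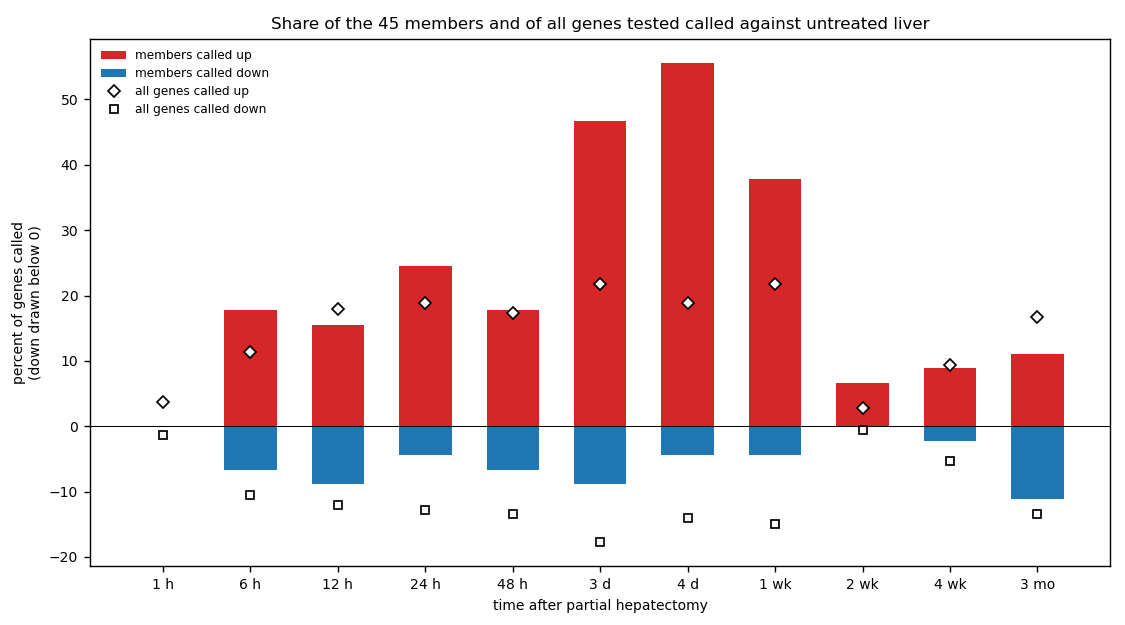
Percent of the 45 members (bars) and of all 18193 genes (open symbols) called up, and called down drawn below 0, at each time after partial hepatectomy against untreated liver. The bars stand above the open diamonds most clearly at 3 days, 4 days and 1 week, when 21, 25 and 17 members were called up.

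The hybridization controls of operated arrays did not overlap those of untreated arrays (10.60 to 11.27) at any time except 24 hours (10.02 to 10.85). They were at 10.20 to 10.26 at 6 hours, 10.16 to 10.53 at 12 hours, 9.57 to 10.21 at 3 days and 9.70 to 9.93 at 4 days. With their mean as a covariate the standard errors of the called members grew 1.62 times at 3 days and 1.5 times at 4 days, and 1 of 25 calls and 4 of 27 calls remained, against 9 of 11 at 6 hours and 9 of 11 at 12 hours. At 1 week 1 of 19 calls remained, at 3 months 0 of 10 and at 2 weeks 0 of 3. The calls kept among all genes are not given here, so neither the losses nor the calls kept can be read as particular to the members. The member whose call remained at 3 days and at 1 week was Col4a1, and those at 4 days were Col4a1, Col4a2, Nid1 and Lum. At 4 days the covariate gave changes of 1.81 for Col1a1, 2.27 for Col1a2, 1.97 for Col3a1 and 2.08 for Col5a2, against 1.30, 2.28, 2.19 and 2.75 without it. That of Col6a3 was 0.86 with it, against 1.42 without it. Where the controls do not overlap, their level and the operation cannot be told apart, which holds for every time except 24 hours. Without 7 arrays that an earlier analysis of these data had set apart (24-hour replicates 1, 9, 10 and 11, untreated replicate 1, 1-week replicate 4 and 4-week replicate 1), 24 of 25 calls at 3 days, 25 of 27 at 4 days and 14 of 19 at 1 week remained.

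**Figure D2:**
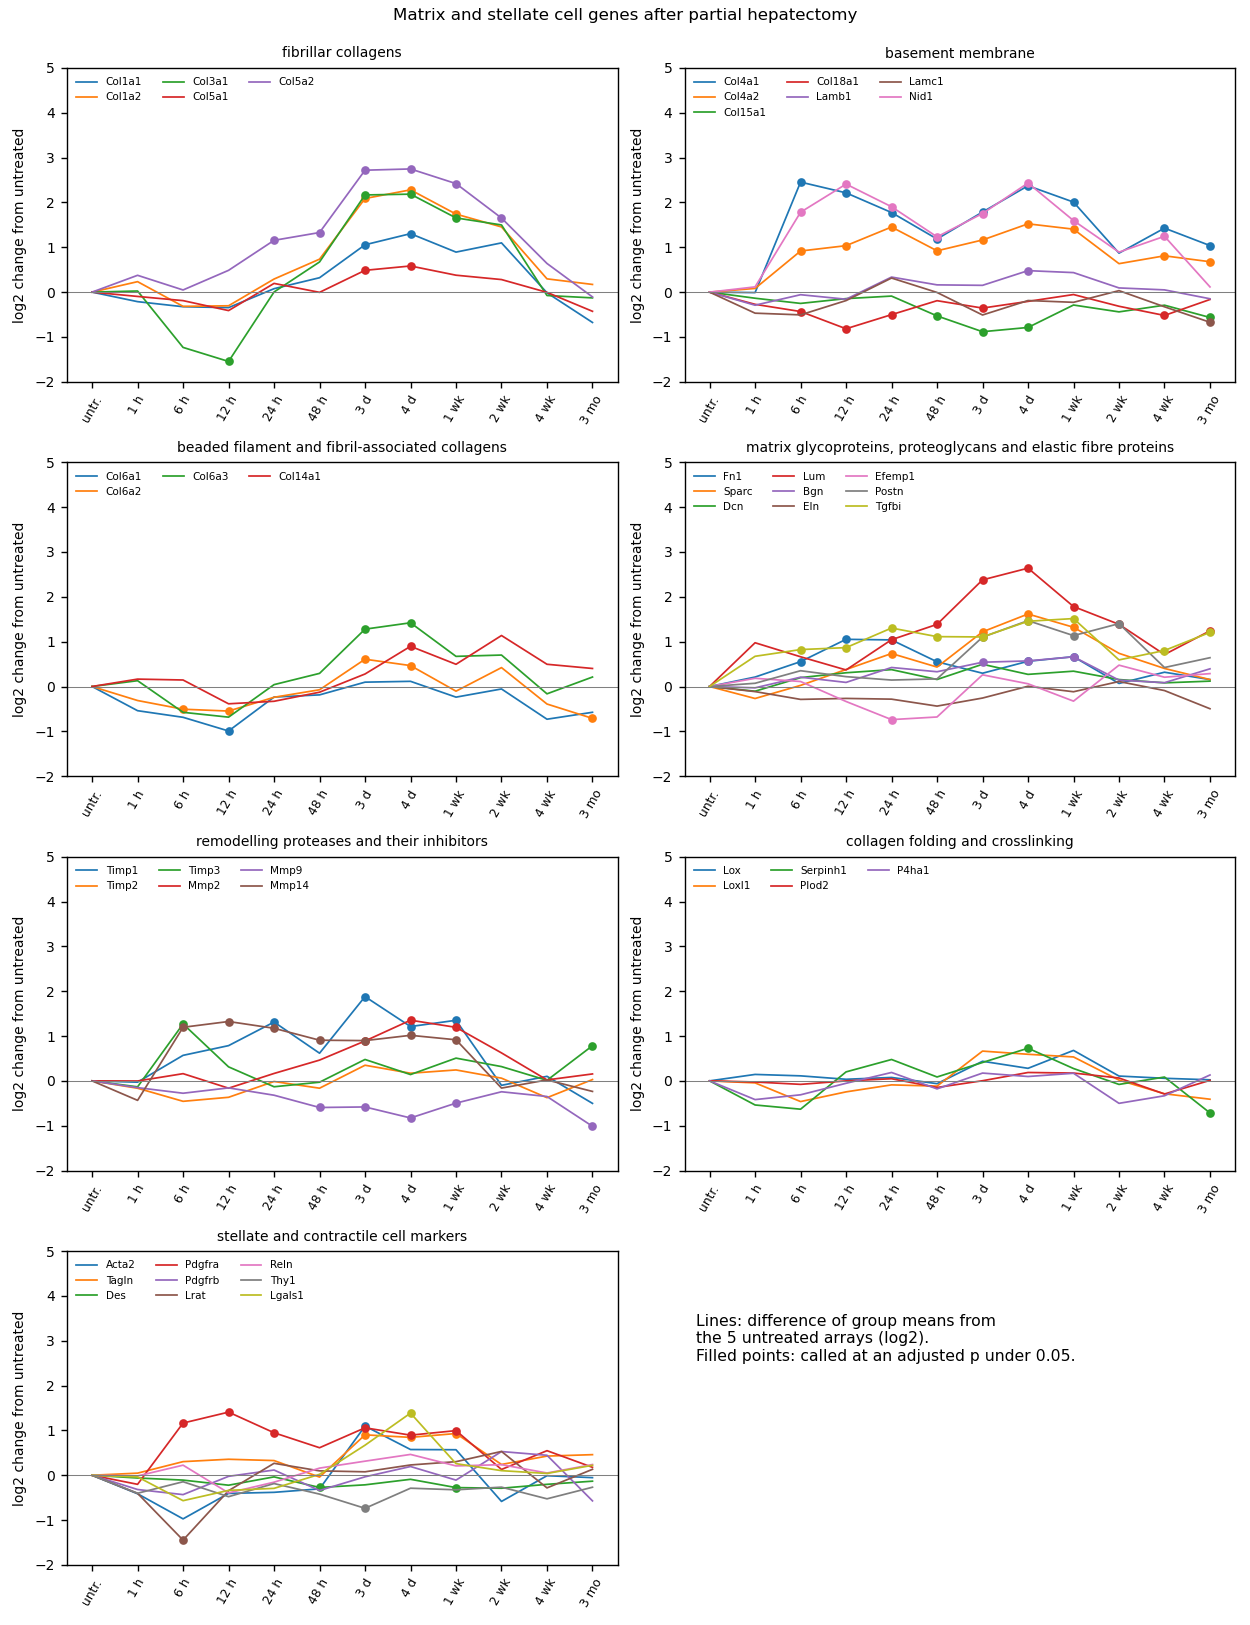
Difference of each member's group mean from untreated liver (log2, vertical axis) over the times after partial hepatectomy (horizontal axis, not to scale), in 7 panels by role; filled points were called. Basement membrane genes Col4a1 and Nid1 stand above 0 from 6 hours on, and the fibrillar collagens peak at 3 and 4 days.

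Promoters are shown first for genes first called up at 6 hours (Col4a1 and Nid1) and at 3 days (Col1a2 and Col3a1). Col4a1 and Nid1 were also high at 4 days (log2 changes 2.37 and 2.43), so all of these genes were high then. The windows span 250 bases before to 50 bases after the start of transcription in RefSeq on GRCm38.p6, each on its gene's strand, and 28 of the 45 members had at least 1. Capitals mark the letters CCAAT (the CCAAT box), the TATA box spelled TATAAA, the GC box spelled GGGCGG and the AP-1 element spelled TGANTCA. All were searched on both strands, and no marked motif overlaps another in these 4 windows. Col4a1 lies at chr8:11312777-11313076 on the minus strand, Nid1 at chr13:13437352-13437651, Col1a2 at chr6:4505368-4505667 and Col3a1 at chr1:45311288-45311587 on the plus strand.
Col4a1: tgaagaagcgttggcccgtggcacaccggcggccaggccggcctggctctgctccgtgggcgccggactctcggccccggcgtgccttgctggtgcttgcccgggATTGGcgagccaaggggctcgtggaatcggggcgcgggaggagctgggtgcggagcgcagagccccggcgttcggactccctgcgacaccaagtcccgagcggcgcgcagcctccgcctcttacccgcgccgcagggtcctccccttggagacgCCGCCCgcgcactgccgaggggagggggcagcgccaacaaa
Nid1: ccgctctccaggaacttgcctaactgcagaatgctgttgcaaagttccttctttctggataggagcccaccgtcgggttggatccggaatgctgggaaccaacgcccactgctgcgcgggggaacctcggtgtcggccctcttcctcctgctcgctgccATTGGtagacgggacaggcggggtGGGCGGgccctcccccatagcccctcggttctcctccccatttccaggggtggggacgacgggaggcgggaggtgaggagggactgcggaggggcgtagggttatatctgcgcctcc
Col1a2: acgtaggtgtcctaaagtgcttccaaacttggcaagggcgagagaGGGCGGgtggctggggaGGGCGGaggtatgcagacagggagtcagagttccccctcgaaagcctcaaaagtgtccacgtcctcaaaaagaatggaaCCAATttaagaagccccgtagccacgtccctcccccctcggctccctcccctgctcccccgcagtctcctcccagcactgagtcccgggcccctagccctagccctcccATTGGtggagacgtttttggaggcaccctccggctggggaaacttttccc
Col3a1: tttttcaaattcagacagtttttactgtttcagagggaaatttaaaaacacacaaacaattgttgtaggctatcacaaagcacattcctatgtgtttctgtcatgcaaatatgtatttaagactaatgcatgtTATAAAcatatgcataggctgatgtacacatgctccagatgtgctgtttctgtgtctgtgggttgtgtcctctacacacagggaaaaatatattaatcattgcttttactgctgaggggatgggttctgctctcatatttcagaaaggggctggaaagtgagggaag
Col4a1 and Nid1 each held 1 CCAAT box and 1 GC box, Col1a2 held 2 of each, and the Col3a1 window held 1 TATA box and none of the others. Of all 32851 windows, 37.4% held the CCAAT box, 13.6% the TATA box, 35.7% the GC box and 7.81% the AP-1 element. Of the 31 windows of members, 11 held the CCAAT box, 3 the TATA box, 21 the GC box and 2 the AP-1 element. The start of Col4a2, the partner chain of Col4a1, lies 21 bases from that of Col4a1 on the opposite strand, and its window (chr8:11312555-11312854) shares 78 bases with the one shown. A match is a description of these letters only.

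Among basement membrane genes, 3 of 7 were called up at each of 6, 12 and 24 hours, against 11.4%, 17.9% and 18.9% of all genes. Col4a1, which encodes the alpha 1 chain of type IV collagen, the network-forming collagen of basement membranes, stood at 8.32, 8.05, 7.95 and 8.37 at 6 hours and 7.66, 7.80, 8.10 and 8.18 at 12 hours, against 5.27, 5.60, 6.31, 5.73 and 5.70 in untreated liver. All 8 of these operated arrays lay above all untreated arrays, and the 1-hour arrays (5.77, 5.84 and 5.52) lay within them. The change was 5.48-fold at 6 hours (log2 change 2.45 ± 0.29, adjusted p = 1.11e-08) and close to it at 12 hours (log2 change 2.21 ± 0.29, adjusted p = 1.20e-07). Col4a1 then stood at 6.82, 6.74, 7.08 and 6.99 at 48 hours, 7.52, 8.42, 7.93 and 8.51 at 4 days and 7.39, 7.81, 7.04 and 8.67 at 1 week. It thus had 2 maxima, at 6 hours and at 4 days, with 48 hours below 6 hours (log2 change -1.27 ± 0.30, adjusted p = 0.00158) and 4 days above 48 hours (log2 change 1.19 ± 0.30, adjusted p = 0.0375). The second of these steps lost its call when any of several single arrays was left out (8 of 19 alternatives). Col4a1 was still higher at 4 weeks (7.85, 7.04, 6.82 and 6.87, log2 change 1.43 ± 0.29, adjusted p = 5.84e-04) and at 3 months (6.28, 6.74 and 7.26, log2 change 1.04 ± 0.31, adjusted p = 0.0103), and the 3-month call ended without 3-month replicate 3.

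Col4a2, the alpha 2 chain that is wound together with it, was called up at the same 9 times. Its signal was 6.26, 6.33, 6.18 and 6.51 at 6 hours and 6.76, 7.25, 6.996 and 6.70 at 4 days, against 5.20, 5.26, 5.76, 5.45 and 5.35 in untreated liver, with no overlap. The change was smaller at 6 hours (log2 change 0.92 ± 0.21, adjusted p = 8.33e-04) than at 4 days (log2 change 1.52 ± 0.21, adjusted p = 8.57e-07), and the 4-day arrays stood above the 6-hour arrays (log2 change 0.61 ± 0.22, adjusted p = 0.0415), a call that 8 of 19 alternatives ended.

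Nid1 encodes nidogen 1, which links laminin to type IV collagen. It stood at 7.65, 7.78, 8.14 and 8.02 at 12 hours and 6.99, 9.15, 7.68 and 7.88 at 4 days, against 4.93, 5.28, 5.87, 5.58 and 5.79 in untreated liver. Every array at both times lay above the untreated arrays, and 4-day replicate 2 was far above the other 4-day arrays. The change was 5.31-fold at 12 hours (log2 change 2.41 ± 0.39, adjusted p = 5.74e-06) and 5.4-fold at 4 days (log2 change 2.43 ± 0.39, adjusted p = 1.02e-05). At 3 months Nid1 was at 5.70, 5.61 and 5.51, within the untreated range. The mean of its 3 probe sets gave smaller changes, 0.93 at 4 days, which was still called. At 4 weeks the call (log2 change 1.25 ± 0.39, adjusted p = 0.0262) ended without 4-week replicate 1, which was at 8.00 where the other 3 were between 6.19 and 6.50.

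The other basement membrane genes did not follow. Col18a1, whose chain releases endostatin and which hepatocytes also express, fell at 6 hours (log2 change -0.43 ± 0.13, adjusted p = 0.0117) and 12 hours (log2 change -0.82 ± 0.13, adjusted p = 4.42e-06), and Col15a1, a related collagen of vessel basement membranes, fell at 3 days (log2 change -0.88 ± 0.20, adjusted p = 4.49e-04) and 4 days (log2 change -0.79 ± 0.20, adjusted p = 0.00207). The Col15a1 probe set lay above the median of all probe sets in 2 of the 12 groups, and at 3 and 4 days it was below that median, so these falls lie near background. The laminin beta 1 chain gene Lamb1 was called up at 4 days only (log2 change 0.48 ± 0.19, adjusted p = 0.0435), and 11 of 20 alternatives ended that call. The laminin gamma 1 chain gene Lamc1 was called down at 3 months only (log2 change -0.67 ± 0.23, adjusted p = 0.0246). At 4 days 4 of the 7 were called up and 1 down, against 18.8% and 14.1% of all genes, with a median change of 0.48.

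The 5 fibrillar collagens of the list, a class that forms the load-bearing fibres of scar and portal tracts, were high at 3 and 4 days. Col5a3, a further type V chain, is counted below among 15 other collagen, laminin and basement membrane genes. Of those 0 were called up at 3 or 4 days. At 6 hours 0 of the 5 were called, against 11.4% of all genes up and 10.5% down, with a median change of -0.32. At 12 hours 1 was called down, against 12.0% of all genes. At 3 days and at 4 days all 5 were called up, against 21.7% and 18.8% of all genes, with median changes of 2.09 and 2.19. At 1 week 3 were called up, at 2 weeks 1, and at 4 weeks and 3 months 0, against 21.8%, 2.80%, 9.33% and 16.7% of all genes. The median change was still 1.655 at 1 week and 1.45 at 2 weeks, with all 5 positive, but single arrays weighed heavily in both. In all 5 genes 1-week replicate 4 and 2-week replicate 1 were the highest arrays of their time. Col1a2, for example, was at 7.46, 8.83, 7.11 and 10.58 at 1 week and at 9.50 and 6.92 at 2 weeks. Neither the calls nor the medians therefore settle how far these genes had fallen by then. At 2 weeks only 2 arrays were measured.

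Col3a1, the single chain gene of type III collagen, was at 6.58, 6.48, 6.76 and 6.05 at 6 hours and 6.59, 6.34, 5.71 and 5.97 at 12 hours, against 7.83, 7.07, 8.15, 7.17 and 8.29 in untreated liver. All 8 of these operated arrays lay below all untreated arrays. The fall was called at 12 hours (log2 change -1.55 ± 0.50, adjusted p = 0.0152) and not at 6 hours (log2 change -1.23 ± 0.50, adjusted p = 0.0717). The 12-hour call ended without 12-hour replicate 3, with the mean of both probe sets of the gene, and with the Gapdh difference as a covariate. At 3 days Col3a1 stood at 9.98, 10.04, 9.59 and 9.86 and at 4 days at 9.50, 10.59, 9.83 and 9.62, above every untreated array. The rise was 4.49-fold at 3 days (log2 change 2.17 ± 0.50, adjusted p = 6.37e-04) and 4.55-fold at 4 days (log2 change 2.19 ± 0.50, adjusted p = 8.41e-04). The 1-week arrays spread widely (8.48, 9.94, 7.85 and 11.13), and their call (log2 change 1.66 ± 0.50, adjusted p = 0.00814) ended without 1-week replicate 4. At 4 weeks the values were 5.38, 8.42, 8.16 and 8.54 and at 3 months 7.80, 7.50 and 7.42, and neither time was called.

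Col1a1 and Col1a2 encode the 2 chains of type I collagen. Col1a2 stood at 8.97, 8.96, 8.64 and 8.81 at 3 days and 8.62, 9.51, 9.08 and 8.93 at 4 days, against 6.93, 6.36, 6.79, 6.60 and 7.10 in untreated liver. No late array overlapped the untreated ones, and the change was 2.09 ± 0.42 at 3 days (adjusted p = 1.20e-04) and 2.28 ± 0.42 at 4 days (adjusted p = 6.54e-05). Col1a1 stood at 6.00, 5.65, 5.68 and 6.27 at 3 days and 6.59, 6.11, 6.07 and 5.82 at 4 days, against 5.53, 4.01, 5.17, 4.60 and 4.90 in untreated liver. It too was separated at both times, but its changes (log2 change 1.06 ± 0.41, adjusted p = 0.0388 at 3 days, log2 change 1.30 ± 0.41, adjusted p = 0.0138 at 4 days) lay closer to the threshold, and 10 of 20 alternatives ended the 3-day call. The 2-week arrays of Col1a1 were 7.16 and 4.72 and those of Col1a2 9.50 and 6.92, so that in both genes 1 array lay above the untreated range and 1 within it.

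Col5a2, a chain of type V collagen, which seeds thin fibrils, had the largest changes of the 5 at 3 and 4 days on the probe sets used. It stood at 7.39, 6.89, 6.99 and 7.15 at 3 days and 6.49, 7.96, 7.03 and 7.05 at 4 days, against 4.22, 4.25, 4.32, 4.54 and 4.60 in untreated liver. The rise was 6.58-fold at 3 days (log2 change 2.72 ± 0.38, adjusted p = 5.11e-07) and 6.71-fold at 4 days (log2 change 2.75 ± 0.38, adjusted p = 1.03e-06), and the mean of both probe sets gave 1.87 at 4 days on the log2 scale, still called but below the 2.32 of Col3a1 computed the same way. It was the earliest of the 5 to be called up, at 24 hours, where the 11 arrays stood at 4.95 at the lowest, 5.52 at the median and 6.13 at the highest. All lay above the untreated arrays (log2 change 1.16 ± 0.31, adjusted p = 0.00325), but the mean of both probe sets ended that call. By 3 months Col5a2 was at 4.72, 4.78 and 3.33, lower than at 1 week (log2 change -2.53 ± 0.43, adjusted p = 0.00173), where it stood at 5.95, 6.78, 5.53 and 8.96. Col5a1, its partner chain, had the smallest changes of the 5 (log2 change 0.49 ± 0.19, adjusted p = 0.0345 at 3 days, log2 change 0.58 ± 0.19, adjusted p = 0.0144 at 4 days). Probe sets of Col5a1 were called in opposite directions at 3 days. Its 3-day call ended in 9 of 20 alternatives and its 4-day call in 2 of 20.

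**Figure D3:**
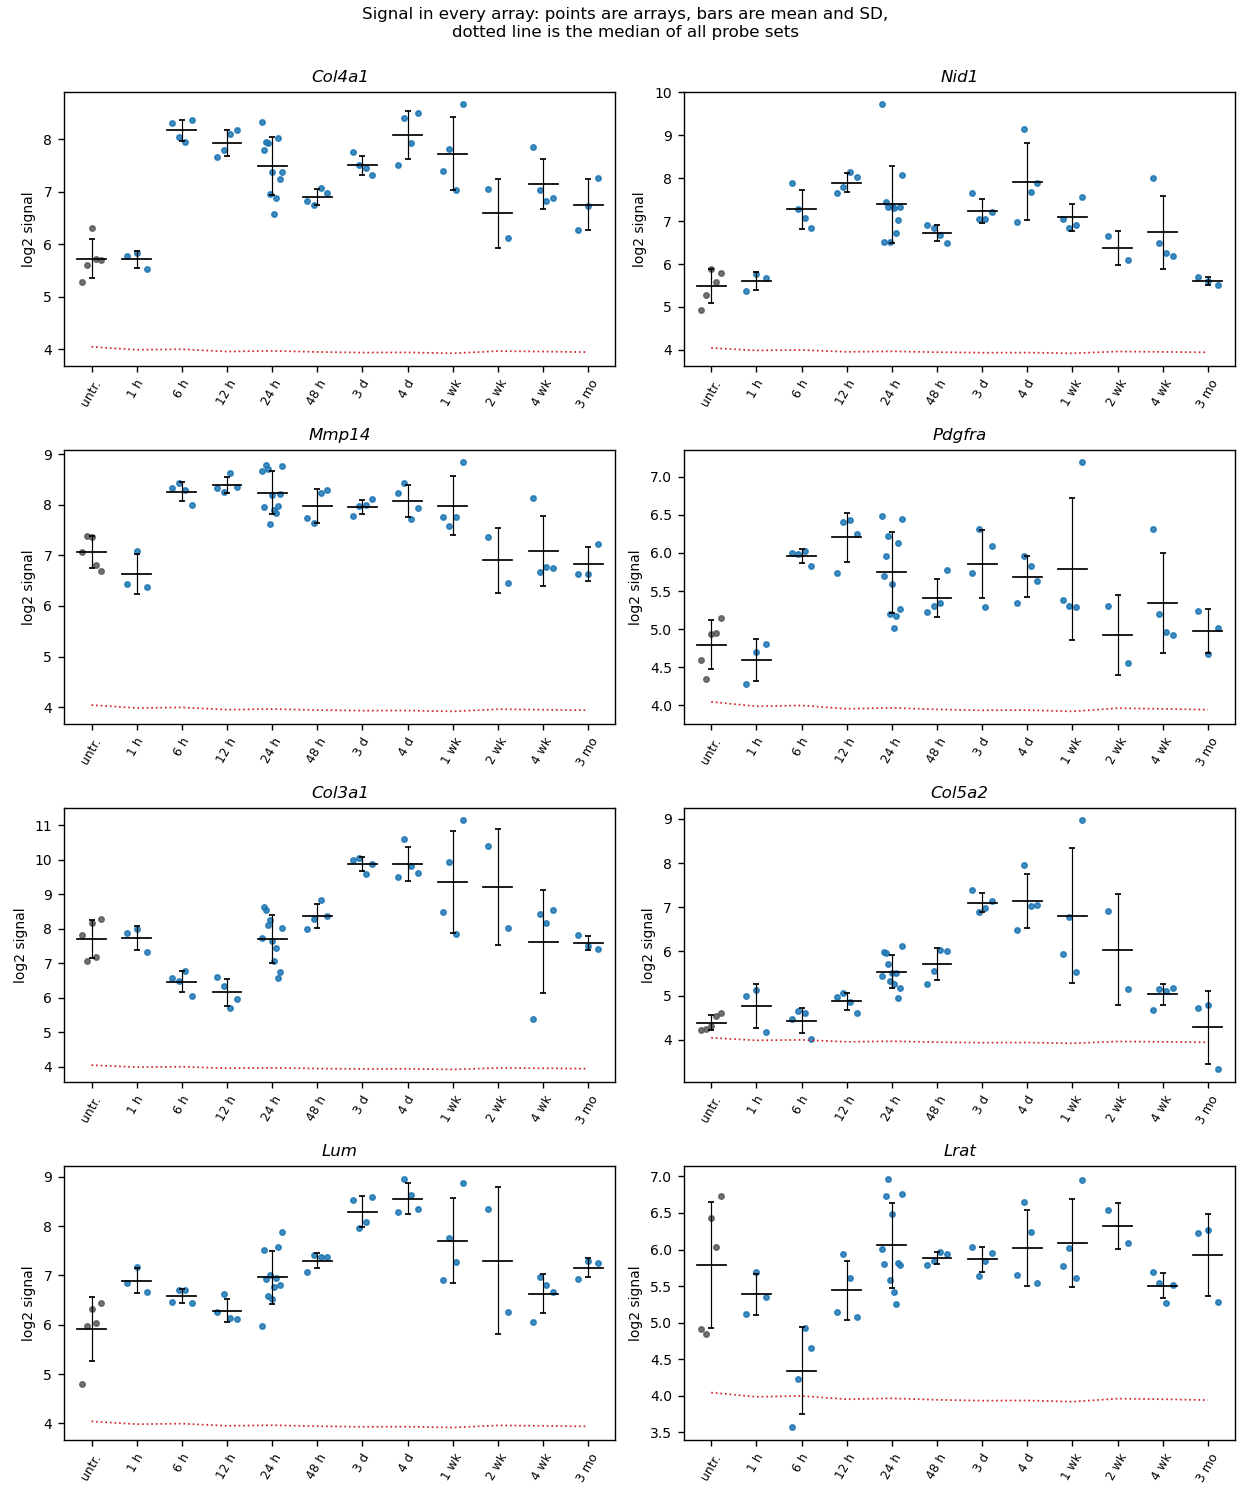
Log2 signal of 8 members in every array by time, with group means and SDs (bars) and the median of all probe sets (dotted line). Col4a1, Nid1, Mmp14 and Pdgfra stood above all untreated arrays at 6 and 12 hours, Col3a1 was below them at 6 and 12 hours and above them at 3 and 4 days, and Lrat was at 3.57, 4.23, 4.92 and 4.65 at 6 hours.

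Of the beaded filament and fibril-associated collagens, 0 of 4 were called up and 1 and 2 down at 6 and 12 hours. Of all genes, 11.4% and 17.9% were up and 10.5% and 12.0% down at these times. At 3 and 4 days 2 and 3 of the 4 were called up, against 21.7% and 18.8% of all genes. Col6a3, a chain of the type VI collagen that forms beaded microfilaments around cells, was at 6.59, 7.68, 6.60 and 6.11 at 4 days, against 4.88, 4.90, 5.47, 5.44 and 5.93 in untreated liver. All 4 late arrays lay above the untreated ones (log2 change 1.42 ± 0.36, adjusted p = 0.00236). Col6a1, another chain of the same collagen, was at 4.21, 3.30, 3.97 and 4.13 at 12 hours, against 5.14, 4.43, 5.00, 4.79 and 5.10 in untreated liver. The 12-hour arrays lay below all untreated arrays (log2 change -0.99 ± 0.28, adjusted p = 0.00602), the call ended without 12-hour replicate 2, and at 4 days the change was 0.12 (adjusted p = 0.783). Col6a2, the third chain, fell at 12 hours (log2 change -0.55 ± 0.18, adjusted p = 0.0162) and rose at 3 days (log2 change 0.61 ± 0.18, adjusted p = 0.00612). The mean of its 2 probe sets ended the 3-day call. Of 20 alternatives 8 ended the Col6a2 call at 6 hours, 4 that at 12 hours, 3 that at 3 days and 12 that at 4 days. Col14a1, a fibril-associated collagen, was at 7.30, 8.01, 7.74 and 7.38 at 4 days, against 6.29, 6.44, 7.08, 6.79 and 6.95 in untreated liver. It was called up at 4 days only (log2 change 0.90 ± 0.29, adjusted p = 0.0154), its largest change being 1.14 ± 0.36 at 2 weeks, where only 2 arrays were measured and it was not called (adjusted p = 0.0672). Of 20 alternatives 6 ended the 4-day call, among them the mean of its probe sets.

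Matrix glycoproteins and proteoglycans were mixed in timing. Of the 9 members 2 were called up at 6 hours, 4 at 24 hours, 5 at 3 days and 6 at 4 days and at 1 week. Of all genes, 11.4%, 18.9%, 21.7%, 18.8% and 21.8% were called up at these times. Lum encodes lumican, a proteoglycan that spaces collagen fibrils. It stood at 8.54, 7.96, 8.09 and 8.60 at 3 days and 8.28, 8.96, 8.63 and 8.35 at 4 days, against 4.81, 5.97, 6.32, 6.04 and 6.45 in untreated liver, where replicate 1 was low. Every late array lay above the untreated ones, with a 5.2-fold change at 3 days (log2 change 2.38 ± 0.33, adjusted p = 4.64e-07) and a 6.23-fold change at 4 days (log2 change 2.64 ± 0.33, adjusted p = 2.09e-07). At 3 months Lum was at 6.94, 7.29 and 7.24, still above untreated liver (log2 change 1.24 ± 0.36, adjusted p = 0.00832).

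Sparc, a secreted calcium-binding protein that attends collagen assembly, was at 8.50, 9.49, 8.64 and 8.57 at 4 days, against 7.01, 6.62, 7.72, 7.05 and 7.52 in untreated liver. The 4-day arrays lay above all untreated arrays (log2 change 1.62 ± 0.26, adjusted p = 9.13e-06), and at 4 days Sparc was also higher than at 48 hours (log2 change 1.18 ± 0.27, adjusted p = 0.0206). Tgfbi, an adhesion protein named for its induction by TGF-beta, was called up at 6 hours and at every later time except 2 weeks. It was at 7.64, 7.71, 7.91 and 7.82 at 6 hours and 8.03, 8.45, 7.92 and 9.43 at 1 week, against 6.26, 6.77, 7.53, 7.04 and 7.13 in untreated liver. The 6-hour change (log2 change 0.82 ± 0.25, adjusted p = 0.0135) was called with no overlap and lost its call without untreated replicate 1. The 1-week arrays also lay above all untreated arrays (log2 change 1.51 ± 0.25, adjusted p = 1.13e-05). At 3 months Tgfbi remained called (log2 change 1.21 ± 0.28, adjusted p = 0.00116).

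Fn1 encodes fibronectin, which hepatocytes secrete in bulk. It was called up from 6 to 48 hours and again at 4 days and 1 week, most at 12 hours (log2 change 1.05 ± 0.15, adjusted p = 4.06e-07) and 24 hours (log2 change 1.04 ± 0.12, adjusted p = 6.96e-09). Its second probe set gave changes of -0.24 at 12 hours and -0.57 at 24 hours, and with the mean of both no Fn1 call remained, so the direction of Fn1 depends on the probe set. Postn, a matricellular protein of fibroblasts, was called up from 3 days (log2 change 1.10 ± 0.32, adjusted p = 0.00629) to 2 weeks (log2 change 1.40 ± 0.40, adjusted p = 0.0409), most at 4 days (log2 change 1.47 ± 0.32, adjusted p = 5.81e-04). The 3-day call ended with the hybridization covariate, with the Gapdh covariate and without 3-day replicate 1. The 2-week Postn arrays were 7.80 and 6.06, the lower just above the highest untreated array (6.02). Bgn, the proteoglycan biglycan, was called up at 3 days, 4 days and 1 week with changes of 0.54, 0.57 and 0.66, and 9 to 11 of 20 alternatives ended each call. Efemp1, an elastic fibre associated glycoprotein, was called down at 24 hours (log2 change -0.74 ± 0.22, adjusted p = 0.00973). Dcn, the proteoglycan decorin that quiescent stellate cells express, and Eln, elastin, were called at no time against untreated liver.

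Of the 6 remodelling genes 2 were called up at 6 hours, against 11.4% of all genes, and 3 up and 1 down at each of 3 days, 4 days and 1 week. At these later times 21.7%, 18.8% and 21.8% of all genes were up and 17.7%, 14.1% and 14.9% down. Mmp14 encodes the membrane-type protease MT1-MMP, which cuts fibrillar collagen and activates pro-MMP2. It stood at 8.32, 8.43, 8.29 and 7.99 at 6 hours and 8.34, 8.25, 8.63 and 8.34 at 12 hours, against 7.06, 7.38, 7.37, 6.82 and 6.70 in untreated liver. All of these operated arrays lay above all untreated arrays (log2 change 1.195 ± 0.26, adjusted p = 4.79e-04 at 6 hours, log2 change 1.32 ± 0.26, adjusted p = 1.02e-04 at 12 hours). Mmp14 was called up at every time from 6 hours to 1 week, the 1-week call ended without 1-week replicate 4, and at 2 weeks and later the changes were between -0.24 and 0.02. Mmp2, the gelatinase that MT1-MMP activates, was late. It was at 6.06, 6.64, 5.73 and 5.70 at 4 days, against 4.35, 4.33, 5.19, 4.69 and 4.85 in untreated liver, with no overlap (log2 change 1.35 ± 0.29, adjusted p = 4.02e-04). At 6 hours it stood at 4.76, 4.90, 4.95 and 4.77 (log2 change 0.16 ± 0.29, adjusted p = 0.775). Mmp9, a gelatinase of leukocytes, was called down from 48 hours (log2 change -0.59 ± 0.18, adjusted p = 0.00886) to 1 week and at 3 months (log2 change -1.01 ± 0.19, adjusted p = 1.67e-04). Its second probe set had a change of 0.22 at 4 days, and both probe sets lay near or below the median of all probe sets.

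Timp1 encodes the main inducible inhibitor of matrix metalloproteases. At 24 hours its 11 arrays stood at 4.30 at the lowest, 5.32 at the median and 5.71 at the highest, and at 3 days it was at 5.54, 6.79, 5.24 and 5.79, against 3.81, 3.92, 4.07, 3.93 and 4.07 in untreated liver. The untreated mean lay just below the median of all probe sets, and Timp1 exceeded that median in 8 of the 12 groups. Arrays of both times lay above all untreated arrays (log2 change 1.31 ± 0.39, adjusted p = 0.00814 at 24 hours, log2 change 1.88 ± 0.48, adjusted p = 0.00198 at 3 days). At 6 hours the 4 arrays (4.82, 4.71, 4.39 and 4.20) also lay above the untreated ones, but the change was not called (log2 change 0.57 ± 0.48, adjusted p = 0.469). The 1-week arrays were 3.92, 4.68, 3.88 and 8.78, and the 1-week call (log2 change 1.35 ± 0.48, adjusted p = 0.0253) ended without replicate 4. The 4-day call (log2 change 1.21 ± 0.48, adjusted p = 0.0494) ended in 12 of 20 alternatives. From 2 weeks on Timp1 was not called, with changes from -0.50 to 0.10. Timp3, the matrix-bound inhibitor, was called up at 6 hours (log2 change 1.27 ± 0.21, adjusted p = 1.12e-05) and was then lower at 48 hours than at 6 hours (log2 change -1.30 ± 0.22, adjusted p = 2.36e-05). At 3 months it was called again (log2 change 0.78 ± 0.23, adjusted p = 0.00921), with another of its probe sets called the opposite way. Timp2, which takes part in MMP2 activation, was called at no time, and its probe sets were called in opposite directions at 3 days, 4 days and 3 months.

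Of the 5 genes of collagen folding and crosslinking, 1 was called up at 4 days, against 18.8% of all genes. The same gene was called down at 3 months, against 13.4% of all genes. Of the other genes of this role, Plod2 lay above the median of all probe sets in 0 of the 12 groups, Lox in 3 and Loxl1 in 8, so their signals were near background. That gene, Serpinh1, encodes HSP47, the chaperone of procollagen. It was at 6.62, 7.34, 6.83 and 6.96 at 4 days, against 5.96, 5.66, 6.42, 6.29 and 6.72 in untreated liver. The groups overlapped (log2 change 0.73 ± 0.25, adjusted p = 0.0249), and at 3 months it stood at 5.29, 5.44 and 5.74 (log2 change -0.72 ± 0.28, adjusted p = 0.0454). Lox, the lysyl oxidase that starts crosslinking, was at 3.61, 3.83, 3.65 and 6.89 at 1 week, against 3.81, 3.94, 3.75, 3.75 and 3.83 in untreated liver. Only replicate 4 lay apart, the change was not called (log2 change 0.68 ± 0.32, adjusted p = 0.0884), and without that replicate it was -0.12. Loxl1, a related oxidase, was at 4.69, 4.79, 5.13 and 4.79 at 3 days, against 4.22, 3.63, 4.39, 3.96 and 4.74 in untreated liver. The lowest 3-day array lay below the highest untreated array, and the change was not called (log2 change 0.66 ± 0.32, adjusted p = 0.0903). The lysyl hydroxylase gene Plod2 and the prolyl hydroxylase gene P4ha1 were called at no time. P4ha1 changed by -0.50 at 2 weeks and 0.10 at 4 days.

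Stellate and contractile markers did not move as 1 group. At 6 hours 1 of the 9 was called up and 1 down, at 3 days 3 up and 1 down, and at 4 days 3 up and 0 down. Of all genes, 11.4% were up and 10.5% down at 6 hours, 21.7% and 17.7% at 3 days, and 18.8% and 14.1% at 4 days. Pdgfra, the PDGF receptor alpha of fibroblasts and stellate cells, was among the members called up at 6 hours. It stood at 6.00, 5.98, 6.03 and 5.82 at 6 hours and 5.73, 6.40, 6.43 and 6.25 at 12 hours, against 4.60, 4.35, 4.94, 4.95 and 5.15 in untreated liver. All of these operated arrays lay above all untreated arrays (log2 change 1.16 ± 0.31, adjusted p = 0.00375 at 6 hours, log2 change 1.41 ± 0.31, adjusted p = 3.89e-04 at 12 hours), and the mean of its 3 probe sets gave 0.58 at 12 hours, still called. At 1 week Pdgfra was at 5.38, 5.31, 5.29 and 7.19, and its call ended without replicate 4. Pdgfrb, the PDGF receptor beta that marks stellate cells and pericytes, was at 5.81, 5.54, 5.88 and 5.49 at 6 hours and 6.02, 6.08, 6.95 and 6.18 at 4 days, against 6.15, 5.62, 6.77, 5.82 and 6.19 in untreated liver. The groups overlapped at both times, and it was called at no time. The 95% interval of its change at 4 days was -0.34 to 0.73 on the log2 scale.

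Lrat encodes lecithin retinol acyltransferase, which makes the retinyl esters that stellate cells store. It was at 3.57, 4.23, 4.92 and 4.65 at 6 hours, against 4.91, 4.85, 6.43, 6.03 and 6.73 in untreated liver. Replicate 3 at 6 hours lay just above the 2 lowest untreated arrays and the other 6-hour arrays below all untreated ones (log2 change -1.45 ± 0.34, adjusted p = 0.00102). At 12 hours Lrat was at 5.15, 5.94, 5.61 and 5.08 (log2 change -0.34 ± 0.34, adjusted p = 0.478), and at 48 hours at 5.79, 5.85, 5.96 and 5.94, higher than at 6 hours (log2 change 1.54 ± 0.35, adjusted p = 0.00111). Reln, reelin, which stellate cells express in liver, was at 8.35, 8.42, 8.47 and 8.30 at 6 hours and 8.59, 9.14, 8.35 and 8.42 at 4 days, against 8.22, 7.53, 8.61, 8.10 and 8.33 in untreated liver. It was called at no time, and its change at 6 hours was 0.22 with a 95% interval of -0.20 to 0.65.

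Acta2 encodes smooth muscle actin, the usual mark of activated stellate cells. It was at 5.73, 5.62, 5.68 and 5.53 at 6 hours and 7.60, 8.01, 8.22 and 7.01 at 3 days, against 6.69, 6.32, 6.17, 6.61 and 7.27 in untreated liver. The 6-hour arrays all lay below the untreated ones without a call (log2 change -0.97 ± 0.44, adjusted p = 0.118), and the 3-day arrays overlapped them and were called narrowly (log2 change 1.10 ± 0.44, adjusted p = 0.0451), a call that 10 of 20 alternatives ended. Tagln, transgelin, an actin-binding protein of contractile cells, was called up at 3 days (log2 change 0.90 ± 0.28, adjusted p = 0.00979), 4 days and 1 week. Its 3-day call ended with quantile normalization, with the hybridization covariate and with the Gapdh covariate. Lgals1, the lectin galectin 1, was at 9.04, 10.46, 9.28 and 9.19 at 4 days, against 8.15, 7.45, 8.30, 8.28 and 8.35 in untreated liver. All 4-day arrays lay above the untreated ones (log2 change 1.39 ± 0.29, adjusted p = 2.77e-04), and 4-day replicate 2 was the highest. Des, the intermediate filament desmin, was called down at 48 hours (log2 change -0.27 ± 0.10, adjusted p = 0.0363) and 1 week (log2 change -0.28 ± 0.10, adjusted p = 0.029), and Thy1, a surface protein of portal fibroblasts and T cells, was called down at 3 days (log2 change -0.74 ± 0.21, adjusted p = 0.00455). The Des calls ended in 8 of 20 alternatives at 48 hours and 7 of 20 at 1 week. The Thy1 call ended without 3-day replicate 3 and with the hybridization covariate, and its 3-day mean lay below the median of all probe sets.

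Late and early liver were also compared directly, in a comparison chosen after the values were seen. The untreated arrays do not enter its changes, but they share in the estimate of the spread. At 4 days against 6 hours 19 members were called up and 2 down, against 14.5% of all genes up and 7.87% down, and the median change was 0.63 for the members and -0.01 for all genes. All 5 fibrillar collagens were higher at 4 days, led by Col3a1 (log2 change 3.42 ± 0.53, adjusted p = 5.13e-06), whose values at these times are given above. Col5a2 (log2 change 2.70 ± 0.40, adjusted p = 2.83e-06), Col1a2 (log2 change 2.60 ± 0.44, adjusted p = 2.67e-05) and Col6a3 (log2 change 2.00 ± 0.38, adjusted p = 1.41e-04) followed. Lrat (log2 change 1.68 ± 0.35, adjusted p = 5.44e-04), Acta2 (log2 change 1.55 ± 0.47, adjusted p = 0.0138), Lgals1 (log2 change 1.95 ± 0.30, adjusted p = 5.48e-06) and Serpinh1 (log2 change 1.36 ± 0.27, adjusted p = 2.25e-04) were higher at 4 days as well. Timp3 (log2 change -1.13 ± 0.22, adjusted p = 2.44e-04) and Mmp9 (log2 change -0.55 ± 0.18, adjusted p = 0.0266) were lower. Of the 8 members called up at 6 hours, Col4a2 was higher at 4 days (log2 change 0.61 ± 0.22, adjusted p = 0.0415) and Timp3 lower, and the other 6 were not called. Among these, Col4a1 changed by -0.08 (95% interval -0.69 to 0.53), Mmp14 by -0.18 (-0.73 to 0.37) and Pdgfra by -0.27 (-0.92 to 0.38). The hybridization controls did not overlap between these times either, so their level and the time cannot be told apart. With them as a covariate 14 of the 21 calls remained, among them those of all 5 fibrillar collagens, and without 4-day replicate 2 13 members were called.

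**Figure D4:**
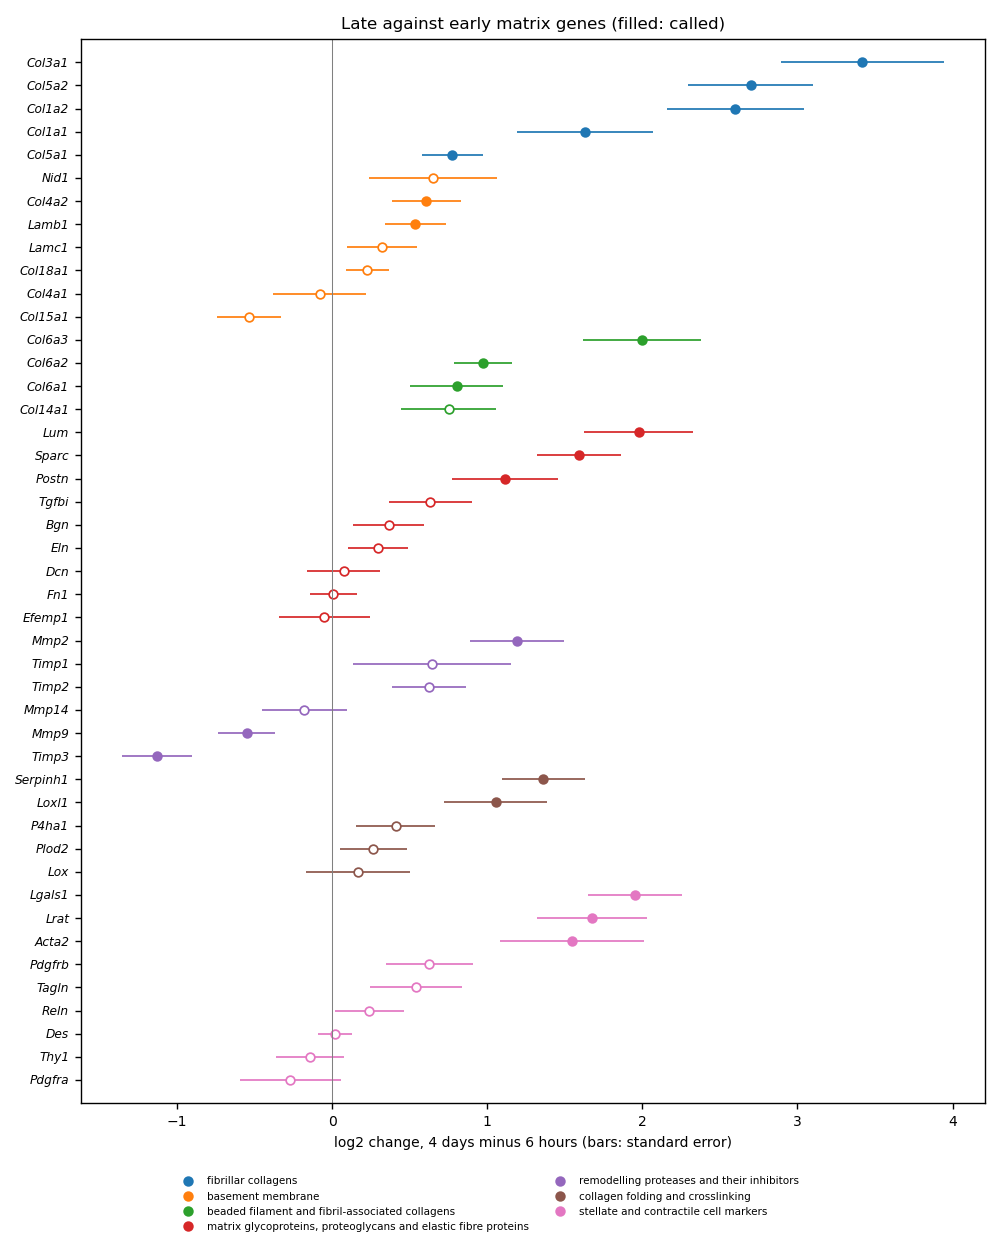
Log2 change of the 45 members at 4 days against 6 hours (horizontal axis), with standard errors, grouped by role; filled points were called. The fibrillar collagens lie right of 0, from 0.77 for Col5a1 to 3.42 for Col3a1, whereas Col4a1, Mmp14 and Pdgfra lie near 0.

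Neighbouring steps were smaller. At 48 hours against 6 hours 4 members were called up and 3 down, against 15.0% of all genes up and 8.62% down. The members up were Col3a1 (log2 change 1.91 ± 0.53, adjusted p = 0.00668), Col5a2, Serpinh1 and Lrat, and those down were Col4a1, Efemp1 and Timp3. At 4 days against 48 hours 4 members were called up and 0 down, against 0.352% and 0.643% of all genes. Of the members 21 had an unadjusted p under 0.05, a count not made over all genes. The 4 called up were Lgals1 (log2 change 1.36 ± 0.30, adjusted p = 0.016), Sparc, Postn and Col4a1, and every one of these calls ended without 4-day replicate 2. At 1 week against 4 days 0 members were called in either direction by limma, against 0.0110% of all genes up and 0.0110% down, and 5 had an unadjusted p under 0.05. At 3 months against 1 week 0 were up and 3 down, against 0.302% and 0.506%. Those down were Col5a2, Sparc (log2 change -1.17 ± 0.29, adjusted p = 0.0401) and Mmp14 (log2 change -1.15 ± 0.30, adjusted p = 0.0469), and the calls of Sparc and Mmp14 ended without 1-week replicate 4.

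Matrix genes outside the 45 were counted in 5 further lists. Of all genes, 11.4% were up and 10.5% down at 6 hours, 17.9% and 12.0% at 12 hours, and 18.9% and 12.8% at 24 hours. The shares were 21.7% and 17.7% at 3 days and 18.8% and 14.1% at 4 days. Several counts of these lists lay near those shares, and no list was tested as a set. Of 20 other glycoprotein and elastic fibre genes 2 were called up and 1 down at 6 hours, and 3 up and 4 down at 4 days. Ccn2, a matricellular protein also called CTGF, had the largest change of these, 3.00 ± 0.39 at 6 hours (adjusted p = 8.94e-08) and 1.47 at 4 days (adjusted p = 0.00328). Of 19 other remodelling enzymes 1 was up at 6 hours, Adamts1, a secreted protease of proteoglycans (log2 change 2.52 ± 0.38, adjusted p = 2.33e-06), and 7 were up and 2 down at 4 days. Of 15 other collagen, laminin and basement membrane genes 0 were called up and 6 down at 3 days and 0 up and 4 down at 4 days. At 12 hours 1 of them was up and 9 down, with Col5a3, another chain of type V collagen, at -2.09 ± 0.36 (adjusted p = 1.72e-05). Of 15 other folding and modification genes 2 were up and 4 down at 6 hours, 8 up and 1 down at 24 hours, and 5 up and 2 down at 4 days, where Pcolce, an enhancer of procollagen processing, changed by 1.70 ± 0.28 (adjusted p = 1.57e-05). Of 20 other stellate cell and fibroblast genes 1 was up and 2 down at 6 hours, 4 were up and 3 down at 3 days and 4 up and 4 down at 4 days.

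Markers of other liver cells were counted in the same way. Of all genes, 3.67% were called up at 1 hour, 11.4% at 6 hours, 17.9% at 12 hours and 18.9% at 24 hours. The share up was 17.4% at 48 hours, 21.7% at 3 days, 18.8% at 4 days and 21.8% at 1 week. It was 2.80% at 2 weeks, 9.33% at 4 weeks and 16.7% at 3 months. At 3 and 4 days 17.7% and 14.1% of all genes were down. All 9 hepatocyte markers lay above the median of all probe sets in every group, and their summed linear signal was 91200 to 95100 at 4 days, against 85300 to 93100 in untreated liver. Of 10 Kupffer cell markers 5 were called up at 1 hour, when no member was, 2 at 6 hours and at 12 hours, 5 at 48 hours, 7 at 4 weeks, and 9 at each other time, with sums of 904 to 2140 at 1 hour and 1070 to 2330 at 4 days, against 291 to 583 in untreated liver. Of 10 endothelial markers 2 were up at 6 hours, 6 at 3 days and 4 at 4 days, with sums of 1100 to 1390 at 6 hours, against 496 to 956 in untreated liver. The 6-hour sum holds a large rise of 1 gene, Lyve1, from a group mean of 4.89 to 8.40. The median change of the endothelial markers was 0.25, and Kdr (6.88 to 6.34) and Fcgr2b (7.25 to 7.08) were lower without a call. Smooth muscle markers, 8 in all, were not higher as a list, with 1 up and 2 down at 3 days, and sums of 364 to 429 at 3 days, against 439 to 598 in untreated liver. These sums mostly follow Mylk, the brightest of the list (8.52 in untreated liver, 7.92 at 3 days). Smtn (3.47 to 4.24), Actg2 (4.09 to 4.64) and Cnn1 (2.84 to 3.11) were higher at 3 days, and 3 of the 8 were not above the median of all probe sets. Of 7 mesothelial and portal fibroblast markers 2 were up at 3 days and 1 at 4 days, with 4 not above the median of all probe sets at either time. Of 8 monocyte and neutrophil markers 3 were up and 2 down at 4 days, of 6 cholangiocyte markers 1 up and 1 down, and of 6 lymphocyte markers 0 up and 2 down. All 5 dividing cell markers were up from 48 hours to 1 week. The part of these cell types in the changes of the members was not tested.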

How the data were processed

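Total RNA of mouse liver was hybridized to 52 arrays, per the labels' protocols. The deposited values are log2 signals per probe set. The submitters' processing notes name oligo (version 1.52.0) and RMA, which subtracts background, forces arrays to 1 distribution and sums up the probes of a set, so that a shift shared by most genes would not show. It is not stated whether the 52 arrays went through RMA in 1 run. The table held 45101 probe sets. Of these, 34945 were annotated to 1 gene and 932 to several by the platform table, 9160 were not listed there and 64 were controls. Symbols were matched through Entrez identifiers to RefSeq genes (18032 of 18193).

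All 52 arrays entered 1 limma 3.58.1 fit of group means in R 4.3.3 (lmFit, eBayes), with two-sided tests and Benjamini-Hochberg adjustment over 18193 genes, which was also tested on simulated data. The number of arrays limits the precision. Groups and replicate numbers came from the titles. No array repeated another (highest correlation 0.99519). Same-numbered arrays of different groups did not in general deviate together (median correlation -0.00, range -0.549 to 0.414, over 0.1 in 41 of 224 pairs). No pairing by number was therefore seen or modelled, although groups this small cannot exclude one. The members, lists and tests were chosen with earlier results of these data known. All members may be named. Values per array are given for the 3 members of a role with the largest change and for 8 index genes (Col1a1, Col3a1, Col4a1, Timp1, Acta2, Pdgfrb, Lrat and Reln), other lists by counts with at most 2 members. Alternatives were the replicate block, mean probe sets, 2 other scalings, a filter on dim genes, groups alone, array weights, 2 covariates and arrays left out. The comparison of 4 days with 6 hours and the removal of the 24-hour arrays with Xist signal were added after seeing the data. Sequences came from RefSeq (GRCm38.p6).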

Additional observations from a re-analysis of the deposited data

Results flagged for a closer look

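Of 200 tests for an array far from the rest of its group, over 25 members, 19 were positive, where chance gives about 1 in 20. In 4-week replicate 1 these were low values of Col3a1 (5.38), Col5a2 (4.67), Col6a1 (3.52), Col6a3 (3.67) and Col14a1 (5.92), and high values of Nid1 (8.00) and Mmp14 (8.13). In 1-week replicate 4 Timp1 (8.78), Mmp14 (8.84), Lox (6.89) and Pdgfra (7.19) were high. The remaining ones were scattered. High values were those of Col1a1 in 48-hour replicate 3 (6.04), Sparc in 4-day replicate 2 (9.49), Lox in 12-hour replicate 3 (3.98), Pdgfrb in 4-day replicate 3 (6.95), Reln in 1-week replicate 2 (8.65) and Lgals1 in 6-hour replicate 4 (7.94). Low values were those of Lum in 48-hour replicate 1 (7.07) and Lgals1 in untreated replicate 2 (7.45).

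Xist, which enters no comparison, was at 9.15, 9.48 and 9.12 in 24-hour replicates 9, 10 and 11, against 2.51 to 3.81 in the other 49 arrays, all labelled male. Without these 3 arrays the 13 member calls at 24 hours all remained and 3 were added. The cause of the Xist signal was not tested.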

How the results depend on the processing

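With hybridization controls as a covariate, against untreated liver, 6 members were called at 48 hours, 1 at 3 days, 4 at 4 days and 1 at 1 week. The later times had 0 (2 weeks), 2 (4 weeks) and 0 (3 months), and 4 days against 48 hours had 0. The Gapdh difference as a covariate gave 0 at 2 weeks, 6 at 3 months and 5 at 3 months against 1 week. Array weights gave 2 at 1 hour, 19 at 6 hours, 17 at 12 hours, 7 at 2 weeks, 13 at 48 hours against 6 hours, 11 at 4 days against 48 hours, 3 at 1 week against 4 days and 6 at 3 months against 1 week. Groups compared alone gave 19 at 6 hours, 1 at 2 weeks, 16 at 48 hours against 6 hours and 0 at 3 months against 1 week. Averaging all probe sets per gene gave 1 at 2 weeks and 5 at 3 months against 1 week. No pairing by replicate number was seen, and the replicate block gave 21 at 24 hours and 5 at 3 months against 1 week. Without the 7 doubted arrays 5 were called at 2 weeks, 11 at 48 hours against 6 hours, 14 at 4 days against 48 hours and 2 at 1 week against 4 days. The cause of these shifts was not tested. Counts over all genes under these settings are not given here, so the shifts cannot be read as particular to the members.

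Leaving out single arrays gave 0 to 4 members at 2 weeks, 3 to 6 at 4 weeks, 6 to 11 at 3 months, 4 to 7 at 48 hours against 6 hours, 0 to 4 at 4 days against 48 hours, 1 to 10 at 3 months against 1 week and 13 to 21 at 4 days against 6 hours. The 0 at 2 weeks came without untreated replicate 1 or 2 or 2-week replicate 1, the 3 at 4 weeks without untreated replicate 1 or 4-week replicate 1, and the 6 at 3 months without 3-month replicate 2. The 4 at 48 hours against 6 hours came without 6-hour replicate 4 or 48-hour replicate 3. At 4 days against 48 hours 48-hour replicates 2 and 3 and 4-day replicate 2 each left 0, 48-hour replicate 1 left 1, and 4-day replicates 3 and 4 left 2. At 3 months against 1 week 1-week replicates 1 and 3 gave 9 and 10, and 1-week replicate 4 and each 3-month replicate gave 1. The change of Lox at 1 week turned to -0.023 with array weights and -0.12 without the doubted arrays, and ran from -0.12 without 1-week replicate 4 to 0.97 without another array. Of the other values, 328 counts stayed within 1.5 times the reported count, and of the named members' values 449 kept direction and side of the threshold, 28 lost their call and 16 gained one. Genes near background and groups of 2 or 3 arrays limit what could be called.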
